A study of Mus musculus with 24 samples.

Results

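The clustered histone genes are the multicopy genes for histones H1, H2A, H2B, H3 and H4, taken here as all rows whose Ensembl identifier belongs to a protein-coding symbol starting with Hist1h, Hist2h, Hist3h or Hist4h in GENCODE M21. The rule found 67 genes among the 55421 rows of each table, of which 6 encode H1, 18 H2A, 18 H2B, 12 H3 and 13 H4. On mouse genome build GRCm38, the Hist1 cluster holds 54 of them on chromosome 13 between 21715763 and 23934851. The Hist2 cluster holds 10 on chromosome 3 between 96219865 and 96270132, the Hist3 cluster holds 2 on chromosome 11 between 58948920 and 58956830, and Hist4h4 lies on chromosome 6 from 136801553 to 136804415.

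The core histones H2A, H2B, H3 and H4 form the protein core around which DNA is wound, and linker histone H1 binds where the DNA enters and leaves that core. The mouse carries many near-copies of their genes in clusters, and these clustered genes supply most new histone protein while DNA is being replicated. Most of their mRNAs end in a short stem-loop, bound by the protein encoded by Slbp, in place of a poly(A) tail. Several of the genes also give transcripts that run past the stem-loop and are polyadenylated, a form known from cells that have left the cell cycle.

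The study sequenced mRNA from uninjured carotid arteries of C57BL/6 mice that the labels give as 9 weeks old. The OVX group received vehicle after ovariectomy, the E2 group received 17β-estradiol, the E4 group received estetrol and the TAM group received tamoxifen, with 6 libraries in each group. For the vehicle, E2 and E4 groups the study's methods give ovariectomized mice with a subcutaneous cholesterol pellet, alone or mixed with hormone, and the E2 and E4 pellets held different amounts, chosen for a like effect on the uterus. The dose and route of tamoxifen, and whether those mice were ovariectomized, are not given in the sources used here. The labels speak of 3 weeks of treatment, the methods of a shorter pellet period. The E4 libraries carry the vehicle entry in the label field for treatment and were assigned from their titles. Each library has its own sample number, written here as C2 to C39, and is taken as a separate animal. The labels do not say so outright, and the p-values measure the spread between these libraries, which may be technical in part.

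Library totals ran from 24647246 counts in E4 C38 to 64221401 in OVX C4, and 3 counts corresponded to between 0.0453 and 0.122 CPM, counts scaled to a common library size, the unit used below. Intervals are not given for single counts, and the floor of 3 counts covers counting error only. Smooth muscle markers (Acta2, Myh11, Tagln and Cnn1) summed to at least 2056 CPM in every library, and endothelial markers (Pecam1, Cdh5, Kdr and Tie1) to at least 360.1 CPM. Markers of a sympathetic ganglion (Th, Dbh, Prph, Npy, Chrna3 and Slc18a2) summed to 15.4 CPM in OVX C5 and 99.7 CPM in TAM C35, against 1019 CPM or more in the other 22 libraries. Thyroid and parathyroid markers (Tg and Pth) summed to 2922 CPM in E4 C38, to 107.4 CPM in E4 C16 and to at most 16.8 CPM in the other 22 libraries. In whole arteries, fewer cells of a type and less RNA per cell cannot be told apart.

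The stem-loop is the feature that sets these mRNAs apart from others, so it was read from the GENCODE M21 transcripts. The pattern searched, on the transcript's strand, has 16 letters: GGC, any letter, CTTTT, any letter, AG, any letter and GCC. It occurred in an annotated transcript of 42 of the 67 genes, against 45 of 21951 protein-coding genes in all, which is 0.205%. The sites below, each in the 3′ untranslated region, are those of members past the test in a comparison and of the member with the most counts, Hist1h1c. Capitals mark the 16 letters.
Hist1h4i: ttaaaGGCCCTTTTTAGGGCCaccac
Hist2h2aa1: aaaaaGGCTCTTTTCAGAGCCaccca
Hist2h2ac: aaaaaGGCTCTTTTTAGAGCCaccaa
Hist2h3c2: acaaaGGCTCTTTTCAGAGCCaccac
Hist3h2ba: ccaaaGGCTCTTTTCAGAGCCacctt
Hist1h3d: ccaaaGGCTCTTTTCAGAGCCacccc
Hist1h1d: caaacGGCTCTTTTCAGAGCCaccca
Hist1h1c: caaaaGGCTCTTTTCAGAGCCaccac
The site began 30 bases after the stop codon in Hist1h4i, 58 in Hist2h2aa1 and 24 in Hist1h1c. All 9 H4 genes with a site carried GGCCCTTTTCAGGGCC or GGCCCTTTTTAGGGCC, while the 4 H1, 11 H2A, 10 H2B and 8 H3 genes carried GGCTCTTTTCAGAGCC, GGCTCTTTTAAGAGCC or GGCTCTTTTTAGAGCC. The Hist2h2aa2 site had the same letters as that of Hist2h2aa1. No site was found in the annotated transcripts of Hist2h2be and Hist1h2bc, which says only that these letters are not in those models.

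Annotated transcripts ran past the stem-loop by very different lengths, 4884 bases in Hist1h1d, 1643 in Hist3h2a, 840 in Hist1h1c, 330 in Hist1h4i and 35 in Hist2h2aa1. The 21 genes with at least 100 annotated bases past it took 53.0% of all counts on the 67 genes. A further 21 genes with under 100 such bases took 5.67%, and the 25 genes without the letters took 41.3%. Single genes set these shares: Hist1h1c and Hist3h2a made up most of the first, and Hist1h2bc and Hist2h2be most of the last. The median gene of the 3 classes averaged 0.654, 0.0900 and 0.0711 CPM. The library kit, a stranded mRNA kit, selects RNA with a poly(A) tail, so the values below describe the part of histone mRNA that such a selection keeps.

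Promoters, taken as 250 bases before to 50 bases after each start, were found in RefSeq (GRCm38.p6) for 61 of the 67 genes and searched on both strands for 4 letter patterns. The box CCAAT (or ATTGG) lay in all 6 H1, 17 H2A, 16 H2B and 10 H3 promoters and in 3 of 12 H4 promoters, against 37.4% of 32817 promoters in all. TATAAA lay in 35 of the 61, against 13.6%. The octamer ATTTGCAT lay in 7 H2A and 7 H2B promoters and in no promoter of the other types, against 1.74%. The palindromic estrogen response element, GGTCA and TGACC with 3 letters of any kind between them, lay in 0 of 61, against 0.0701% of all promoters, a description of this window only. The promoters of Hist1h4i (chr13:22041313-22041612, minus strand), which passed the test with both estrogens, and of Hist2h2aa1 (chr3:96245247-96245546, plus strand) are shown 5′ to 3′ on the gene's strand with CCAAT and TATAAA in capitals.
Hist1h4i: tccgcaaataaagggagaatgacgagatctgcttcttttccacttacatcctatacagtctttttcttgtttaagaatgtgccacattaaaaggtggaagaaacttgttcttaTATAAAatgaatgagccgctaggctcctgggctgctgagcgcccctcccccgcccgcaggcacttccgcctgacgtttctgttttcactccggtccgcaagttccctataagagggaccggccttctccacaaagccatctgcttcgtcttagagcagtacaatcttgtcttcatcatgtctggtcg
Hist2h2aa1: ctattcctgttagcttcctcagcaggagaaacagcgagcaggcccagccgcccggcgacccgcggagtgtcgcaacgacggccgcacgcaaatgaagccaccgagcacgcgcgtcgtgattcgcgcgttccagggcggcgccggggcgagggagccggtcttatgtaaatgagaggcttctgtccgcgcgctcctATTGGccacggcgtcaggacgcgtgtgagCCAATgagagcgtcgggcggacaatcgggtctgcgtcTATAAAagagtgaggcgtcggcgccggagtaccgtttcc
Hist2h2aa1 and Hist2h2aa2, which both encode H2A, shared a run of 219 identical letters in these windows, and Hist2h3c1 and Hist2h3c2 shared 231. In 9 pairs, each of an H2A with an H2B gene on opposite strands, the windows overlapped, so those genes do not have separate promoter sequence.

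Copies of histone genes can share reads. In 21 of the 67 genes over 50% of all 150-base stretches of the transcript occurred in another annotated transcript, and in 14 genes none did. Hist2h2aa2 shared 100% of its stretches and Hist2h2aa1 87.0%, with each other and with Gm20634, and Hist2h3c1 shared 100% with Hist2h3c2, Hist2h3b and the gene model Gm20634. Gm20634 overlaps exons of Hist2h2aa1 and Hist2h3c1 on their own strand, in Hist2h3c1 over all 1825 bases. Their stretches shared with Gm20634 are thus in part the same locus annotated under another name. On the opposite strand, Hist2h2aa1, Hist2h2aa2 and Hist2h2ac overlap predicted Gm models, and the strand setting of the counting is not given in the sources used here. Hist2h2ac, with no shared stretch and an exon overlap on the opposite strand only, carried decimals in its counts in 14 libraries. Hist1h2bq, with 92.4% of its stretches shared, and Hist2h3c2 overlap no exon of another gene and carried none. In these genes decimals went with exon overlap, on the opposite strand as well, and not with shared stretches. Overlapping models on both strands thus appear to divide counts. Values of Hist2h2aa1, Hist2h2aa2, Hist2h2ac, Hist2h3c1 and Hist2h3c2 are therefore uncertain singly. The sum of each of the 2 pairs of near-copies, Hist2h2aa1 with Hist2h2aa2 and Hist2h3c1 with Hist2h3c2, is given where its members are described. Counts given to Gm20634 are not in these sums. Among the members named below, Hist2h2be, Hist1h1c, Hist1h1d, Hist3h2ba and Hist2h2ac shared no stretch, and Hist1h4i shared 2.08%. Hist1h3d shared 16.8% with other H3 genes, Hist1h2bc 17.4% and Hist1h2bg 39.02% with other H2B genes, Hist1h4h 28.0% with other H4 genes, Hist3h2a 28.0% with Trim17 and Hist2h3c2 59.4% with the genes named above.

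The 67 genes together took between 0.0134% and 0.0194% of the counts of a library, and 4 of them led. Hist1h1c, which encodes a linker histone, took 29.6% of the counts on the 67 genes, Hist1h2bc and Hist2h2be, which encode H2B, took 25.6% and 13.5%, and Hist3h2a, which encodes H2A, took 9.96%. Per kilobase of exon and averaged over the 24 libraries, Hist1h2bc stood at 36.1 ± 5.40 CPM per kb (SD) and Hist1h1c at 31.1 ± 4.23. These means differed by less than the SD of Hist1h2bc and lay above the next level, Hist2h2be at 8.39 ± 1.15. Hist3h2a followed at 7.61 ± 1.59, Hist1h4h, an H4 gene, at 6.92 ± 2.85, Hist1h2bg, an H2B gene, at 5.28 ± 0.901 and Hist3h2ba, an H2B gene, at 4.48 ± 1.71. From Hist2h2be to Hist1h4h, neighbours in this order differed by less than their SD. The H3 genes were lower, with Hist2h3c2 at 1.74 ± 0.496 and Hist2h3c1 at 1.49 ± 0.397 CPM per kb.

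**Figure D1:**
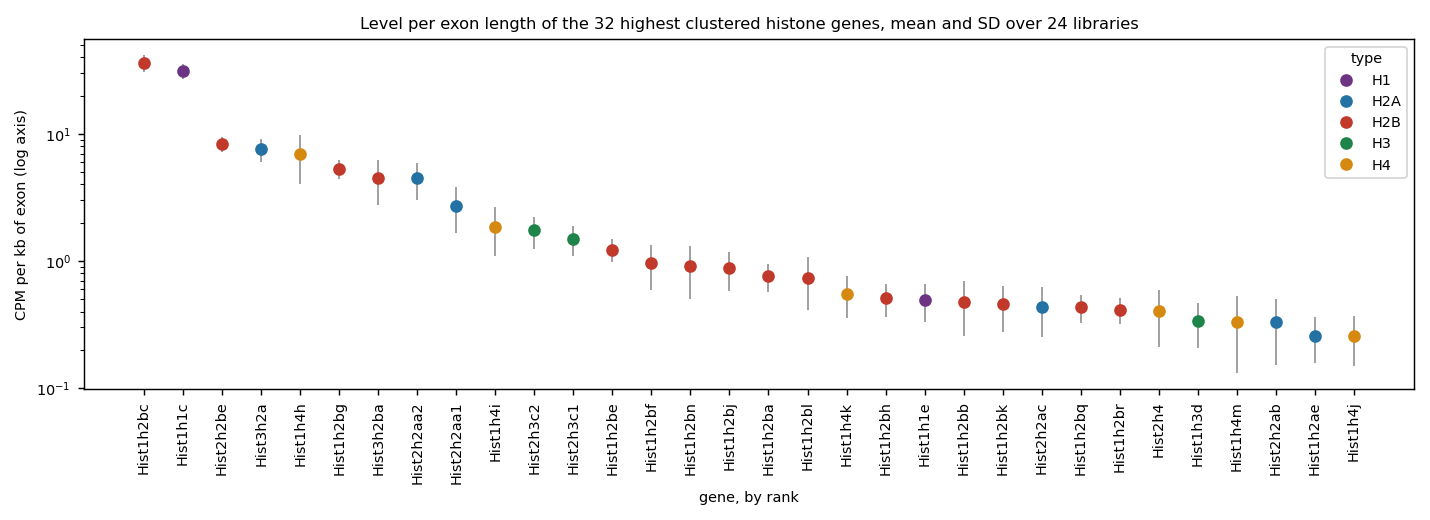
Mean level per exon length (y axis, CPM per kb of exon, log axis) of the 32 highest clustered histone genes in rank order (x axis), with bars of 1 SD over 24 libraries and colours for histone type. Hist1h2bc and Hist1h1c stand apart near 36.1 and 31.1 CPM per kb.

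A filter on low counts left 32 of the 67 genes for testing, namely 3 H1, 6 H2A, 15 H2B, 3 H3 and 5 H4. The other 35 genes held 1.18% of the counts on the 67. None of them averaged above 0.173 CPM (Hist1h4k), and 10 of them had at most 3 counts in every library. Hist1h2aa had 0 counts in all 24 libraries, which allows a level of up to 0.00273 CPM over the pooled libraries.

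Summed by histone type, H2B led in every group, followed by H1 and H2A, with H3 and H4 lowest. Summed H2B had a median of 74.4 CPM in OVX, 86.8 in E2, 79.2 in E4 and 76.6 in TAM, and summed H1 had medians of 44.6, 53.3, 52.5 and 51.1 CPM in the same order. Hist1h1c alone made up 96.8% of the H1 counts. Summed H2A had medians of 19.4 CPM in OVX, 20.2 in E2, 26.3 in E4 and 21.4 in TAM, of which Hist3h2a made up 76.3%. Summed H3 ran from 3.14 to 5.42 CPM in OVX, from 4.07 to 7.34 in E2, from 4.94 to 6.85 in E4 and from 2.69 to 6.13 in TAM. Summed H4 had medians of 5.54, 7.59, 7.32 and 5.73 CPM, and its lowest library was OVX C2 at 2.50 CPM. For each of the 5 types, the range of each treated group overlapped that of OVX. In H2B and H4 the overlap of E2 rested on OVX C5, at 97.3 CPM of H2B and 9.30 CPM of H4: the other 5 OVX libraries reached 76.3 and 5.93 CPM, below the lowest E2 libraries at 84.2 and 6.52 CPM. The sums are descriptions without a test, and they rest on few genes: without Hist1h1c, the log2 ratio of the E4 to the OVX median of summed H1 was -0.19 in place of 0.24.

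**Figure D2:**
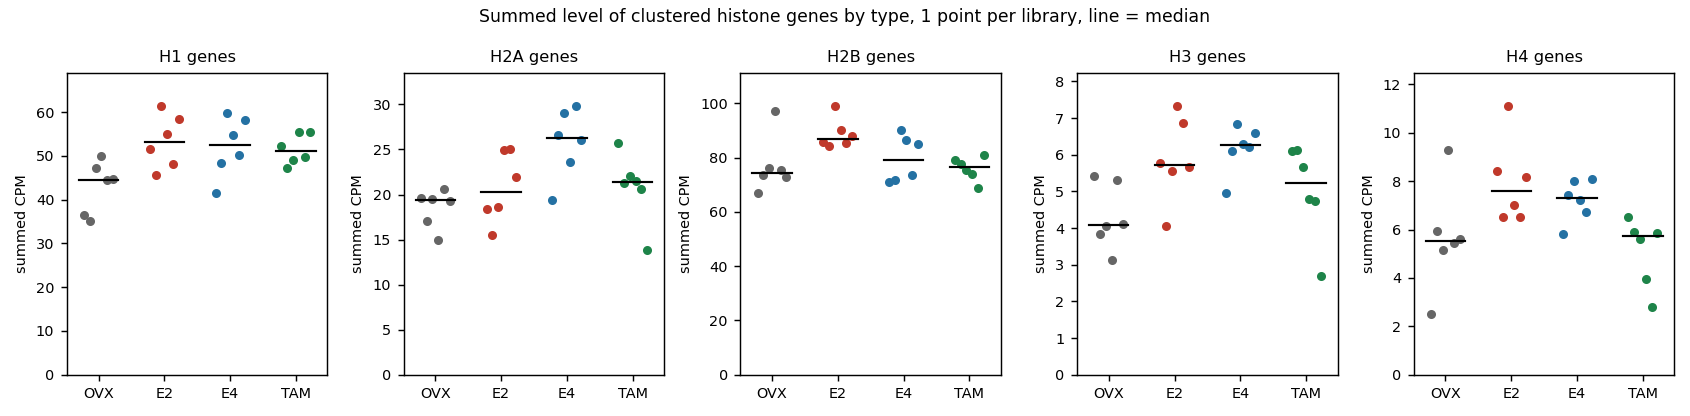
Summed CPM of the clustered histone genes (y axis) by histone type and group, with a point for each library and a line at each group's median (6 libraries a group). Summed H2B lies highest, and in every type the range of each treated group overlaps that of OVX. E2 and TAM, a pair that was not tested, do not overlap in H2B (84.2 to 99.2 against 68.6 to 81.0 CPM). In H4 their ranges all but touch, with the lowest E2 library at 6.523 CPM and the highest TAM library at 6.505 CPM.

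The comparison of E2 with OVX asked what estradiol does to the uninjured artery. Of the 32 genes tested, 3 rose and 0 fell in edgeR's quasi-likelihood test at a Benjamini-Hochberg adjusted p under 0.05, beside 3.88% of all 24646 genes tested (2.65% higher and 1.23% lower). All 3 also had a log2 fold change over 1, the size the study's methods require, beside 1.23% of all genes past both limits. They were the H4 gene Hist1h4i, the H3 gene Hist1h3d and the linker histone gene Hist1h1d, and in all 3 no E2 library overlapped an OVX library, which held for 2.03% of all genes in the higher direction. Hist1h4i (chromosome 13, 22040636 to 22041362, minus strand) had a lowest, median and highest level of 0.488, 0.936 and 1.09 CPM in OVX and of 1.26, 1.71 and 2.92 CPM in E2. The lowest E2 library thus lay above the highest OVX library. Its log2 fold change was 1.13 (SE 0.22, edgeR adjusted p = 0.00468). Hist1h3d (chromosome 13, 23575763 to 23577011, plus strand) had 0.121, 0.346 and 0.375 CPM in OVX and 0.425, 0.568 and 0.936 CPM in E2, a log2 fold change of 1.04 (SE 0.27, edgeR adjusted p = 0.0345). Hist1h1d (chromosome 13, 23553262 to 23560686, plus strand) had 0.196, 0.299 and 0.440 CPM in OVX and 0.545, 0.603 and 1.18 CPM in E2, a log2 fold change of 1.21 (SE 0.31, edgeR adjusted p = 0.0358). Both were low in counts, with 8 to 20 counts in the OVX libraries.

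The genes that carry most of the histone counts did not pass this test. Hist1h1c had a median of 42.9 CPM in OVX and 51.5 CPM in E2, and all 6 E2 libraries lay above the OVX median (log2 fold change 0.30, SE 0.11, edgeR adjusted p = 0.133). Hist1h2bc had medians of 38.4 and 46.3 CPM (log2 fold change 0.23, SE 0.11, edgeR adjusted p = 0.340). The fold change was positive in 27 of the 32 genes, beside 51.3% of all genes, and its median was 0.23, beside 0.01 over all genes. At an unadjusted p under 0.05 the count was 7, beside 15.9% of all genes.

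Library E2 C9 stood apart within E2. It had the highest E2 level of Hist1h4i, Hist1h3d and Hist1h1d, a T cell marker sum (Cd3d, Cd3e, Cd3g and Trac) of 68.2 CPM against at most 14.3 CPM in any other library, and a summed level of 28 S phase and proliferation genes of 366.7 CPM. Across the groups, 4 of 5 macrophage markers (Adgre1, Cd68, Csf1r and Lyz2, not Mrc1) rose with E2, with sums of 404.6 to 727.6 CPM in OVX and of 644.2 to 1036 CPM in E2 and none at 0. Their part in the result was not tested. Without E2 C9, Hist1h4i kept its call (log2 fold change 0.98, edgeR adjusted p = 0.0132), while Hist1h1d stood at 0.999 (edgeR adjusted p = 0.0960) and Hist1h3d at 0.88 (edgeR adjusted p = 0.0912). The count was also 1, Hist1h4i, without OVX C4, OVX C24 or E2 C26, and in these 4 fits between 736 and 779 of all genes passed, against 957 with all libraries. Hist1h4i kept its call without any 1 library. Hist1h1d also lost it without OVX C2, C3 or C25, and Hist1h3d without OVX C5, E2 C27 or E2 C29, with edgeR adjusted p of at most 0.0846 in these fits. Without OVX C5 the count stayed 3, with Hist1h2bc in place of Hist1h3d, beside 1294 of all 24830 genes. The sample numbers fall into a series from C2 to C20 and a series from C24 to C39, whose meaning the labels do not give. Within the first series (4 OVX and 3 E2 libraries) the log2 fold changes of Hist1h4i, Hist1h3d and Hist1h1d were 1.52, 1.21 and 1.41, and within the second (2 OVX and 3 E2) they were 0.57, 0.75 and 0.94. No histone gene passed in either series, beside 190 of all 25117 and 237 of all 25054 genes.

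**Figure D3:**
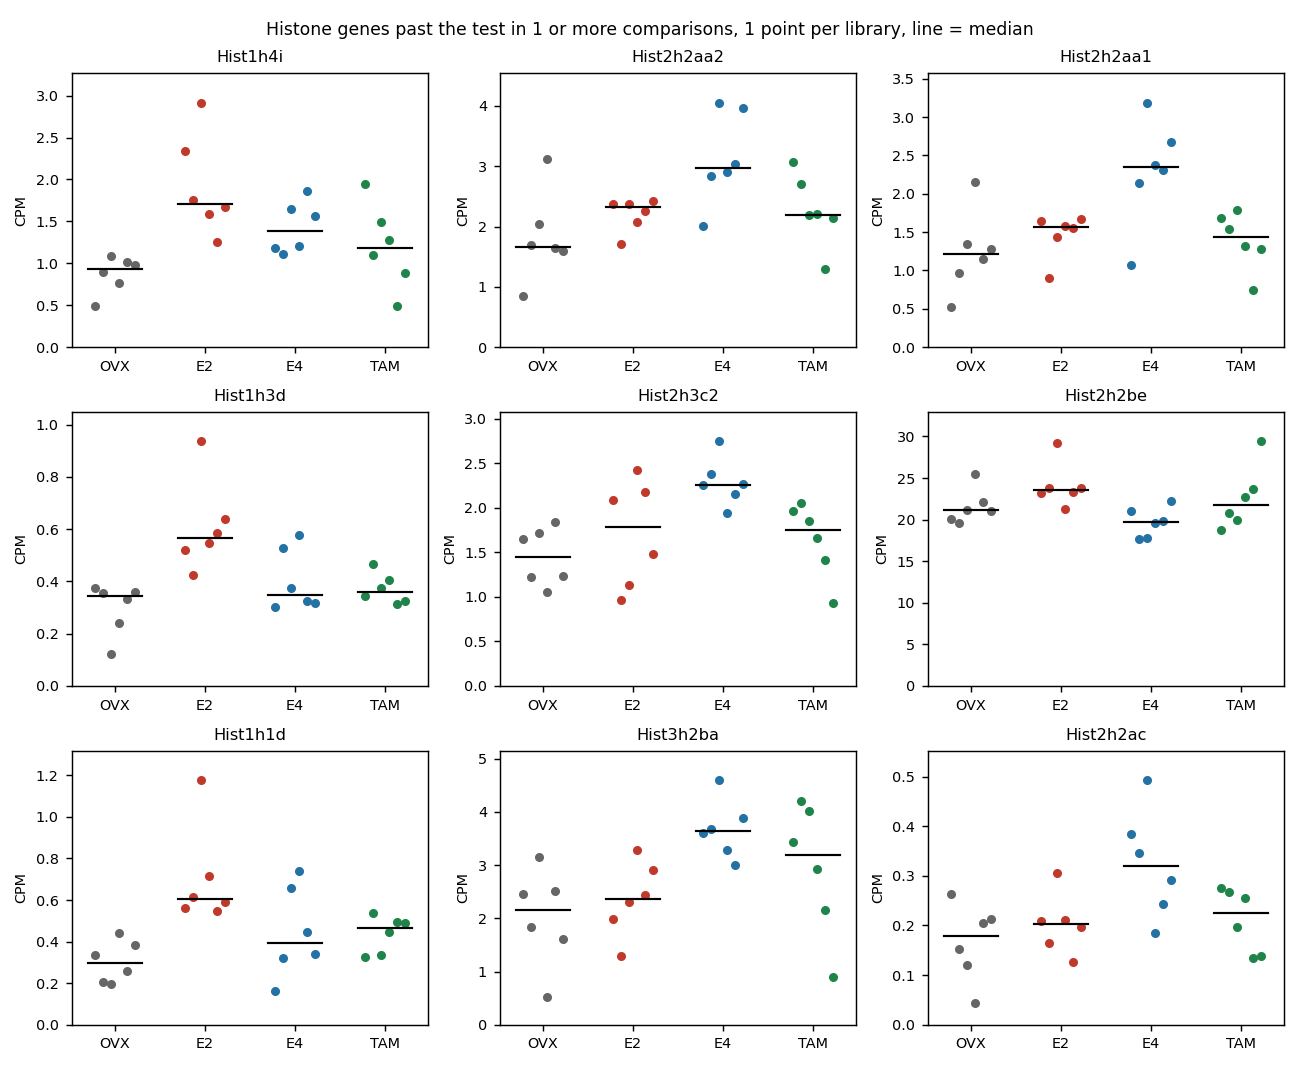
CPM (y axis) of the 9 clustered histone genes past the test in any comparison, with a point for each library by group and a line at each group's median (6 libraries a group). Hist1h4i runs from 1.26 to 2.92 CPM in E2, above all OVX libraries, whose highest value is 1.09 CPM.

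The comparison of E4 with OVX asked the same of estetrol, and it used the same OVX libraries as the E2 comparison. Of the 32 genes tested, 6 rose and 0 fell. The share called, 18.8%, stands beside 21.7% of all genes called in either direction, with 9.65% called higher. They were 3 H2A genes, Hist2h2aa1, Hist2h2aa2 and Hist2h2ac, the H2B gene Hist3h2ba, the H3 gene Hist2h3c2 and the H4 gene Hist1h4i. None of the 6 had an absolute log2 fold change over 1, which 2.51% of all genes passed. Among them, Hist1h4i and Hist2h3c2 had no overlap between the 6 E4 and the 6 OVX libraries, beside 5.38% of all genes in the higher direction. Hist2h3c2 shares sequence with Hist2h3c1, and the sum of both did overlap. How reads that match both were placed is not given.

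Hist2h2aa2 (chromosome 3, 96239749 to 96240276, minus strand) had a lowest, median and highest level of 0.844, 1.67 and 3.12 CPM in OVX and of 2.00, 2.98 and 4.06 CPM in E4, a log2 fold change of 0.78 (SE 0.23, edgeR adjusted p = 0.0240). Hist2h2aa1 (chromosome 3, 96245497 to 96246082, plus strand) had 0.525, 1.21 and 2.15 CPM in OVX and 1.07, 2.34 and 3.19 CPM in E4, a log2 fold change of 0.89 (SE 0.27, edgeR adjusted p = 0.0287). The groups overlapped in both, and since these copies share nearly all their sequence they are not separate results. Their sum had a median of 2.83 CPM in OVX, 3.81 in E2, 5.32 in E4 and 3.75 in TAM. Hist2h2ac (chromosome 3, 96220361 to 96220880, minus strand) was low, with 2 to 13.5 estimated counts in OVX and 6 to 21 in E4 (log2 fold change 0.95, SE 0.33, edgeR adjusted p = 0.0459). It got past the filter on low counts mainly through E4, where it ran from 0.185 to 0.492 CPM, against 0.0440 to 0.263 in OVX and 0.126 to 0.305 in E2. Its call is therefore not independent of that filter.

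Hist2h3c2 (chromosome 3, 96238108 to 96239127, minus strand) ran from 1.06 to 1.84 CPM in OVX with a median of 1.44, and from 1.94 to 2.74 CPM in E4 with a median of 2.26 (log2 fold change 0.65, SE 0.21, edgeR adjusted p = 0.0350). Its near-copy Hist2h3c1 had a log2 fold change of 0.51 (SE 0.20, edgeR adjusted p = 0.0684). Their sum ran from 2.42 to 4.765 CPM in OVX and from 4.34 to 5.87 CPM in E4, with 5 of 6 E4 libraries above all OVX libraries, and had a median of 3.47 CPM in OVX, 4.56 in E2, 5.44 in E4 and 4.59 in TAM. Hist3h2ba (chromosome 11, 58948920 to 58949533, plus strand) had 0.527, 2.15 and 3.15 CPM in OVX and 3.00, 3.64 and 4.60 CPM in E4 (log2 fold change 0.86, SE 0.29, edgeR adjusted p = 0.0419). Its neighbour Hist3h2a (chromosome 11, 58954685 to 58956830, plus strand), which overlaps exons of Trim17, had medians of 15.2 and 19.3 CPM (log2 fold change 0.40, SE 0.16, edgeR adjusted p = 0.0815). Hist1h4i had 1.11, 1.38 and 1.87 CPM in E4 (log2 fold change 0.70, SE 0.22, edgeR adjusted p = 0.0343), again above every OVX library. Hist1h1b, an H1 gene named after its values were seen, was among the 35 genes left out by the filter, with 0 to 0.0691 CPM in E4 (at most 3 counts), 0.0742 to 0.382 CPM in OVX and 0.0986 to 0.230 CPM in E2. In a fit without the filter it passed in the lower direction against OVX and against E2 (edgeR adjusted p = 0.0190 and 0.0417). Hist1h1c had a median of 51.1 CPM in E4 (log2 fold change 0.29, SE 0.11, edgeR adjusted p = 0.0569). The fold change was positive in 24 of the 32 genes, beside 48.4% of all genes, with a median of 0.29 beside -0.01. At an unadjusted p under 0.05 the count was 11, beside 37.0% of all genes.

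The E4 calls depended on single libraries. Without E4 C20 none of the histone genes tested passed and calls over all genes fell from 5341 to 3150. Without OVX C3, where all genes gave 3053 calls, only Hist1h4j passed, an H4 gene named here after its values were seen. Without E4 C39 2 passed, beside 4936 of all 24888 genes, and without OVX C25 3 passed, beside 4886 of all 24851. Without OVX C5 the count was 6, beside 4508 of all 24830 genes, of which 3, Hist2h2aa1, Hist2h2aa2 and Hist3h2ba, were among the 6 above, and the other 3 were Hist1h1c, Hist1h4h and, named after its values were seen, the H2B gene Hist1h2bh. Without E4 C38, the library with the most thyroid and parathyroid RNA and the lowest depth, 4 of the 6 passed, beside 4518 of all 24858 genes. Without E4 C38 and E4 C16, the other library with these markers, 3 passed (Hist2h2aa1, Hist2h2aa2 and Hist1h1c), beside 3790 of all 25160 genes, and the other 4 of the 6 had log2 fold changes of 0.65 to 0.97 (edgeR adjusted p at most 0.0878). Of single genes, Hist2h2aa2 lost its call without OVX C3 or E4 C20 only, and Hist2h2aa1 without these or E4 C39. Hist1h4i lost it without OVX C2, C3 or C5 or E4 C20, C38 or C39, Hist2h3c2 without OVX C3, C5 or C25 or E4 C19 or C20, and Hist3h2ba without OVX C3 or C25, E2 C27 or any E4 library but C38. Hist2h2ac lost it in 14 of the 18 fits, where its edgeR adjusted p reached 0.123. Over all alternatives run, the log2 fold change ran from 0.57 to 0.81 for Hist1h4i, 0.74 to 1.17 for Hist2h2aa1 and 0.63 to 1.09 for Hist2h2aa2. It ran from 0.46 to 0.79 for Hist2h3c2, 0.48 to 1.03 for Hist3h2ba and 0.20 to 1.46 for Hist2h2ac. All 3 B cell markers (Cd79a, Cd79b and Ms4a1) fell in E4, with sums of 2.46 to 16.7 CPM in OVX and of 1.58 to 3.30 CPM in E4 and no marker at 0 throughout a group. With their mean level as a covariate, none of the 32 genes passed edgeR's test, and of all 24646 genes 40 did. The log2 fold changes in that fit were 0.77 for Hist1h4i, 1.13 for Hist2h2aa1 and 1.09 for Hist2h2aa2, each above the value without the covariate, and 0.58 for Hist2h2ac, 0.54 for Hist2h3c2 and 0.50 for Hist3h2ba, all below it. None of 4 T cell markers passed, with sums of 3.00 to 14.3 CPM in OVX and of 1.17 to 3.35 CPM in E4, and all 4 fell without E2 C9. Of 4 fibroblast markers, Col1a1 and Lum fell as well, with sums of 2649 to 3680 CPM in OVX and of 1916 to 3004 CPM in E4. The macrophage marker Mrc1, the smooth muscle marker Tagln and the adipocyte marker Lep also fell, each the 1 gene of its list that did. The mean B cell marker level followed the groups, from -0.256 to 2.47 log2 CPM in OVX and from -1.11 to 0.138 in E4. The fit with that covariate therefore cannot tell it apart from treatment. The part of these markers in the E4 result was not tested. Within the first and the second number series, the log2 fold changes of Hist1h4i were 0.69 and 0.61, those of Hist2h3c2 0.79 and 0.46 and those of Hist2h2ac 1.46 and 0.20. No histone gene passed in either series, beside 651 of all 25117 genes in the first and 140 of all 25054 in the second.

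E4 and E2 were compared directly at pellet contents that differed, so the values describe these pellets. Of the 32 genes, 1 passed, beside 10.9% of all genes (7.95% lower). It was the H2B gene Hist2h2be (chromosome 3, 96221119 to 96223738, plus strand), which fell, with 21.2, 23.5 and 29.2 CPM in E2 and 17.6, 19.7 and 22.3 CPM in E4 (log2 fold change -0.29, SE 0.08, edgeR adjusted p = 0.0354). All 6 E4 libraries lay below the E2 median, and the groups overlapped. Its fold changes against OVX were 0.16 for E2 and -0.14 for E4, neither past the test. The call was lost without any 1 of E2 C6, E2 C8, E2 C9, E4 C19, E4 C20, E4 C36 or E4 C38, and without OVX C5 Hist3h2ba passed beside it. Hist2h2be also lost its call without the filter on low counts. There Hist1h1b passed in its place (log2 fold change -2.12, edgeR adjusted p = 0.0417), beside 1792 of all 40851 genes. In the other fits described here the gene meant is Hist2h2be. Within the first and the second number series the log2 fold change of Hist2h2be was -0.43 and -0.13. All 5 macrophage markers fell in E4 against E2, with and without E2 C9. Of 4 T cell markers 3 fell, and none did without E2 C9, whose sum of 68.2 CPM compares with 2.05 to 9.31 CPM in the other E2 libraries and 1.17 to 3.35 CPM in E4. Of 4 fibroblast markers Dcn, Lum and Pdgfra fell, as did Lep, while Tg rose. The part of these markers in the Hist2h2be result was not tested.

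Of the genes called against OVX with 1 estrogen only, none passed in E4 against E2 in the fit of 18 libraries. In this comparison Hist1h1d had a log2 fold change of -0.65 (SE 0.31, edgeR adjusted p = 0.168), Hist1h3d -0.58 (SE 0.27, edgeR adjusted p = 0.153), Hist2h2aa1 0.65 (SE 0.27, edgeR adjusted p = 0.120) and Hist3h2ba 0.63 (SE 0.29, edgeR adjusted p = 0.145). Some alternatives placed E4 higher past the test. Hist3h2ba did so without OVX C5 (0.63, edgeR adjusted p = 0.0316) and with only the E2 and E4 groups in the fit (0.64, edgeR adjusted p = 0.0299). Hist2h2aa1 and Hist2h2aa2 passed in the latter (edgeR adjusted p = 0.0495 and 0.0412) and with the ganglion covariate (edgeR adjusted p = 0.0494 and 0.0406).

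Tamoxifen was compared with OVX in a fit of all 24 libraries. None of the 32 genes passed edgeR's test, beside 2.21% of all 25033 genes tested, and none passed DESeq2. At an unadjusted p under 0.05 the count was 1, beside 21.0% of all genes. This gene was Hist1h1c, with a median of 49.5 CPM in TAM against 42.9 CPM in OVX (log2 fold change 0.27, SE 0.10, edgeR adjusted p = 0.113). Hist1h4i ran from 0.493 to 1.95 CPM in TAM and overlapped OVX (log2 fold change 0.46, SE 0.26, edgeR adjusted p = 0.321). The median log2 fold change of the 32 genes was -0.03, and 15 were positive, beside 49.4% of all genes. All 4 erythroid markers (Alas2, Hba-a1, Hbb-bs and Hbb-bt) and 2 of 3 B cell markers fell with TAM, as did the adipocyte marker Lep, while the fibroblast marker Col1a1 rose.

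**Figure D4:**
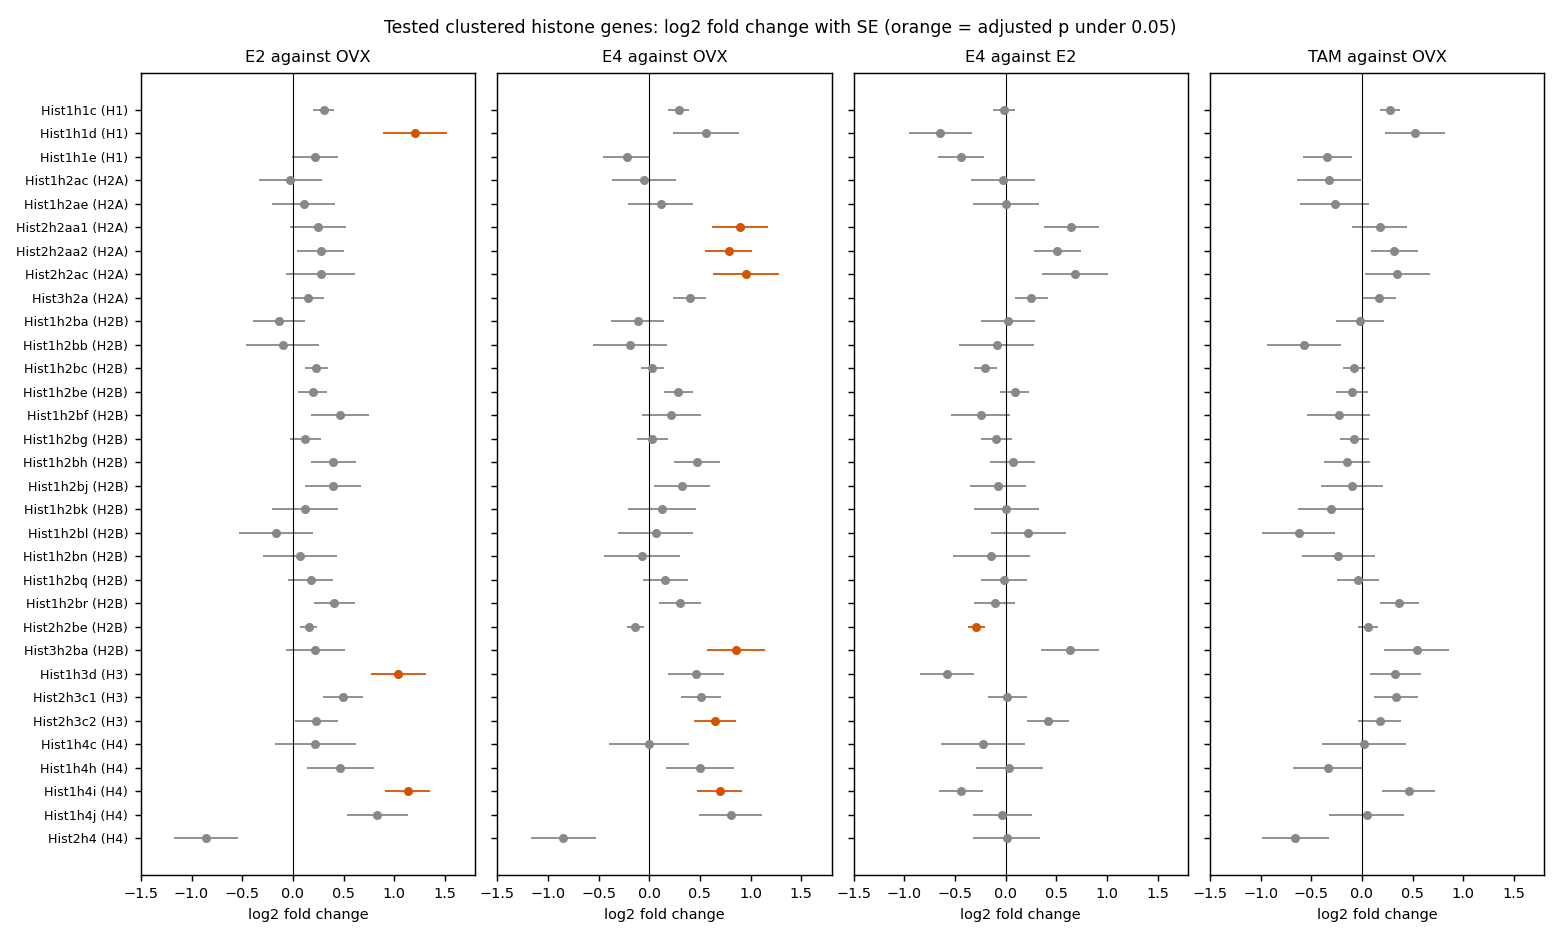
Log2 fold change with its standard error (x axis) of the 32 tested clustered histone genes (y axis) in each of 4 comparisons, with genes past the test marked. The median is 0.23 for E2 against OVX, 0.29 for E4 against OVX, -0.02 for E4 against E2 and -0.03 for TAM against OVX.

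By type, the median log2 fold change for E4 against OVX was 0.59 over 6 H2A genes, 0.51 over 3 H3 genes, 0.50 over 5 H4 genes, 0.29 over 3 H1 genes and 0.13 over 15 H2B genes, beside -0.01 over all genes. For E2 against OVX it was 0.49 in H3, 0.47 in H4, 0.30 in H1, 0.20 in H2A and 0.18 in H2B. The H4 genes spread widely: Hist2h4, the lowest of the 32 and named after its values were seen, had a log2 fold change of -0.86 with E2 (edgeR adjusted p = 0.164) and -0.85 with E4 (edgeR adjusted p = 0.0663), neither past the test. Without E2 C6 it passed in the lower direction with E2 (log2 fold change -1.22, edgeR adjusted p = 0.0224), the 1 of 32 alternatives in which it did, and with E4 it did so in 5 of 32, among them DESeq2 (-0.83, adjusted p = 0.0493).

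The ganglion-poor libraries OVX C5 and TAM C35 were also the lowest libraries for several histone genes. Hist3h2a stood at 8.61 CPM in OVX C5 and 9.84 CPM in TAM C35, against 11.8 to 22.7 CPM in the other 22 libraries. Hist3h2ba stood at 0.527 and 0.905 CPM against 1.30 to 4.60, and Hist2h3c1 at 1.36 and 1.21 CPM against 1.69 to 4.05. Other members moved otherwise. Hist1h2bc stood at 55.1 CPM in OVX C5, the highest of all 24, and 39.3 CPM in TAM C35. OVX C5 was also the highest of all libraries for Hist1h4h (6.31 CPM), Hist1h2bg (4.57 CPM) and Hist1h2bh (1.30 CPM), and TAM C35 for Hist2h2be (29.4 CPM). Summed ganglion markers had medians of 1980 CPM in OVX and 3193 CPM in E4, with 0 of 6 past the test. With their mean as a covariate, Hist3h2ba in E4 against OVX had a log2 fold change of 0.48 (edgeR adjusted p = 0.0792) and Hist2h2aa2 one of 1.07 (edgeR adjusted p = 0.00451).

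**Figure D5:**
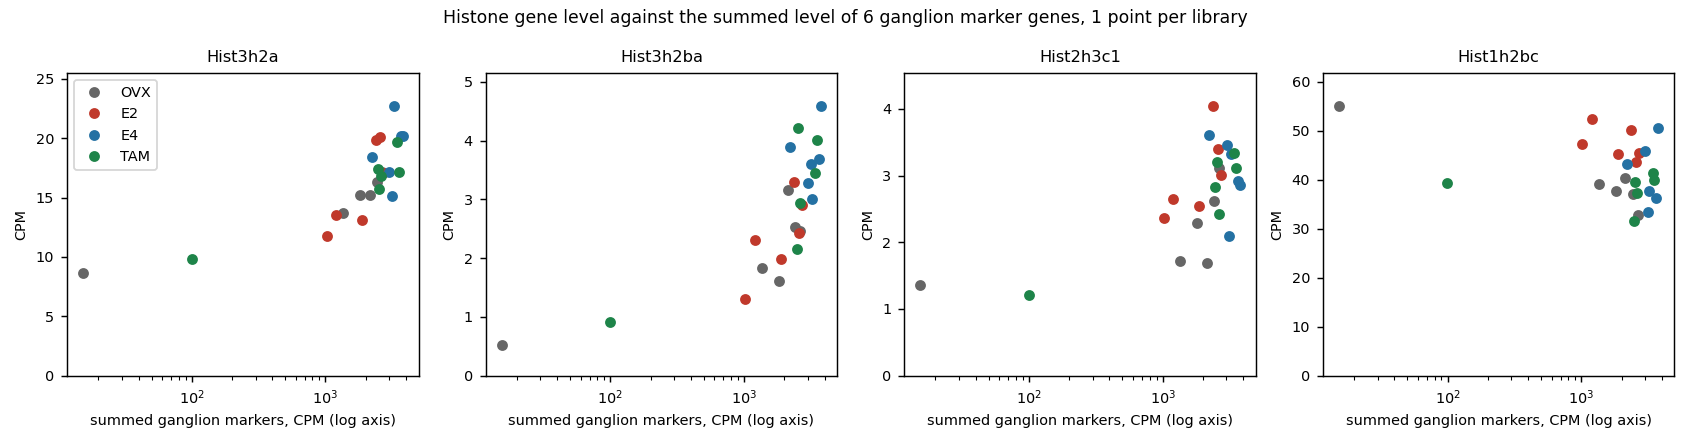
CPM of Hist3h2a, Hist3h2ba, Hist2h3c1 and Hist1h2bc (y axes) against the summed CPM of 6 ganglion markers (x axis, log scale), with a point for each of 24 libraries coloured by group. OVX C5 and TAM C35, at 15.4 and 99.7 CPM of markers, have the lowest Hist3h2a.

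Genes that work with the clustered histones were described from lists chosen with earlier results of these data known. Of 28 S phase and proliferation genes, 2 rose and 0 fell with E2 (Ccnb1 and Mcm2), 1 rose and 4 fell with E4, 9 fell in E4 against E2, and none passed with TAM. The falls are 4 of 28 beside 2962 of all 24646 genes for E4 against OVX, and 9 of 28 beside 7.95% for E4 against E2. The rises stand beside 2.65% of all genes higher with E2 and 9.65% with E4. Mki67 and Top2a, markers of dividing cells, fell in E4 against E2, by 1.79 and 1.92 on the log2 scale (edgeR adjusted p = 0.0180 and 0.0156), and E2 C9 had the highest sum of the list. Without E2 C9 (chosen after seeing the data) they fell by 0.9995 and 1.06 (edgeR adjusted p = 0.0360 and 0.0233), and 4 genes of the list fell in place of 9. With E2, Ccnb1 was then the 1 gene that rose. Of 15 genes for histone mRNA synthesis and 3′ processing, none passed with E2 or TAM. With E4 1 rose and 2 fell, beside 21.7% of all genes called in either direction. In E4 against E2 1 fell, beside 7.95% of all genes. That gene was Slbp, at 17.4 ± 1.36 CPM in E2 and 14.2 ± 1.10 CPM in E4 (log2 fold change -0.30, SE 0.08, edgeR adjusted p = 0.0284), and without E2 C9 the fold change was -0.26 (edgeR adjusted p = 0.0717). Npat, a coactivator of histone gene transcription, had log2 fold changes between -0.10 and -0.03 in the 4 comparisons and passed in none.

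Among 11 replication-independent histone genes, which are transcribed outside S phase and give polyadenylated mRNA, 1 rose with E2, 4 with E4 and 1 with TAM, and none fell, beside 2.65% of all genes higher with E2, 9.65% with E4 and 323 of all 25033 genes with TAM. H1fx, which encodes linker histone H1.X, was the gene that rose in all of them, with 1.34 ± 0.126 CPM in OVX, 2.48 ± 0.581 in E2, 3.57 ± 0.844 in E4 and 2.39 ± 0.813 in TAM (SD, n = 6). Its log2 fold change was 0.88 with E2, 1.42 with E4 and 0.84 with TAM (edgeR adjusted p = 0.00385, 0.000167 and 0.0400), and it was higher in E4 than in E2 by 0.53 (edgeR adjusted p = 0.0453), or by 0.55 without E2 C9 (edgeR adjusted p = 0.0727). H3f3b, which encodes H3.3, rose with E4 (log2 fold change 0.34, SE 0.11, edgeR adjusted p = 0.0360), and H2afz, which encodes H2A.Z, passed in no comparison. Of 19 histone chaperone genes, none passed with E2, 3 rose and 3 fell with E4, beside 21.7% of all genes in either direction, and 1 rose with TAM. In E4 against E2 Hira rose and Asf1b fell (edgeR adjusted p = 0.04584 and 0.01585), beside 10.9% of all genes in either direction. Of 17 RNAs without a poly(A) tail, 4 could be tested, none passed against OVX, and 2 fell in E4 against E2. They summed to 3.27 to 5.57 CPM in OVX and 2.23 to 3.13 CPM in E4, and with their mean as a covariate none of the 32 histone genes passed in E4 against OVX, and of all 24646 genes 1102 did. In that fit the 6 genes called without the covariate had log2 fold changes between 0.65 (Hist2h3c2) and 0.90 (Hist2h2ac), with edgeR adjusted p of 0.0763 to 0.159.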

How the data were processed

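RNA from 24 mouse carotid arteries, 6 per group, had been made into stranded mRNA libraries and sequenced as paired 150-base reads. The authors aligned the reads, counted them per Ensembl gene and deposited a table of estimated counts for each library, and the submitters' processing notes name bcl2fastq 2.17, Trim Galore, Bowtie2, featureCounts and the builds mm10 and GRCm38. Settings for strand and for reads with several matches are not given in the sources used here. Between 8.87% and 9.80% of values carried decimals and were rounded to whole numbers. The column header of OVX C2 carries a read 2 tag.

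The E2 and E4 comparisons were fitted on 18 libraries and TAM on 24, with edgeR 4.0.16 (filterByExpr, TMM, quasi-likelihood test) in R 4.3.3, Benjamini-Hochberg adjusted over all genes tested, and a threshold of 0.05. Simulated data made for E4 against OVX, with 100 genes changed 2-fold and 100 changed 1.5-fold among 24387, gave back 68.7% and 40.4% of them. Far fewer genes changed there than were called in the data, and they were of all levels. The rates therefore need not hold for the histone genes. CPM uses TMM-scaled totals. Text values are given for genes past the test and for up to 4 genes per type with the highest level per kilobase above 1 CPM. The genes and lists were chosen with earlier results of these data known, and 2 marker genes of the lists are not reported here and were left out of every list value. Alternatives were DESeq2 1.42.0, other scaling, filters, thresholds and library sets, and marker covariates.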

Additional observations from a re-analysis of the deposited data

Results flagged for a closer look

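Each named gene and each sum was checked within every group for a library lying apart by Dixon's criterion. It did so in 6 of 80 checks, where about 4 would arise by chance (1 in 20). Hist2h2aa1 was 0.898 CPM in E2 C8, below the other E2 libraries at 1.44 to 1.68 CPM. Hist2h2be was 29.2 CPM in E2 C9, against 21.2 to 23.8 CPM in the others of E2. Hist1h1d was 1.18 CPM in E2 C9, against 0.545 to 0.717 CPM. In OVX C5, Hist1h2bc was 55.1 CPM against 32.9 to 40.4 CPM, Hist1h2bg, an H2B gene, was 4.57 CPM against 2.71 to 3.18 CPM, and summed H2B was 97.3 CPM against 67.0 to 76.3 CPM in the other OVX libraries.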

How the results depend on the processing

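For E2 against OVX, the count of 3 was 1 without a filter on low counts, with at least 10 counts in every library, with the B cell covariate and at an adjusted p under 0.01, was 0 within the first and 0 within the second number series, and ran from 1 to 4 with 1 library left out. Over all genes, the first 3 of these fits gave 780 of 40851, 924 of 20625 and 683 of 24646, against 957. For E4 against OVX, the count of 6 was 3 without the filter (2 higher and Hist1h1b lower, beside 3923 of 40851), 3 without E4 C16 and E4 C38 (chosen after seeing the data), 0 within either series, 0 with the B cell covariate or the covariate of RNA without a poly(A) tail, 0 with an absolute log2 fold change over 1 and 0 at an adjusted p under 0.01, and ran from 0 to 6. For E4 against E2, the count of 1 was 4 with only those groups in the fit, 3 with the ganglion covariate, 2 without OVX C5 and TAM C35 (chosen after seeing the data), while calls over all genes moved from 2691 to 5348, 3900 and 5336, and with only those groups the split of 731 higher and 1960 lower became 2675 and 2673. The count was 0 without E4 C16 and E4 C38, with all 24 libraries, within either series, with the B cell or poly(A) covariate and at both stricter thresholds, and ran from 0 to 2. Calls over all genes were 1085 without E4 C16 and E4 C38, 3134 with all 24 libraries, 271 with the B cell and 248 with the poly(A) covariate. They were 1137 in the first series and 0 in the second, so the 0 there says nothing about the histone genes. For TAM it stayed 0 in every alternative run, while calls over all genes ran from 0 in the second series to 1632 with DESeq2. Such calls were 1 in the first series, 14 with the B cell covariate and 39 with only the groups compared. With so few, a count of 0 says little about the histone genes. DESeq2 gave 3, 9, 1 and 0, the 9 beside 6286 of all 24590 genes, and for E4 against E2 1611 genes higher and 2391 lower. Of 327 values of called genes under alternatives, 203 kept and 124 lost the call and 0 changed sign; the cause was not tested. Log2 ratios of summed medians moved without the highest member to -0.19 (H1, E4), -0.012 (H1, TAM) and 0.70 (H2A, E4), over members without decimals to -0.84 (H2A, E2) and 0.70 (H2A, TAM), and in the second series to 0.32 (H2A, E2). The TAM median of summed H4, above OVX in the full set, lay below it in the second series. There TAM stood at 3.94, 2.80 and 5.85 CPM and OVX at 5.45 and 5.63 CPM. Summed H3 there was 4.79, 4.73 and 2.69 CPM in TAM and 5.32 and 4.10 CPM in OVX. No paired analysis was possible because no sample number occurs in more than 1 group. The 35 genes under the filter had few counts at this depth, and why was not tested.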
